A study of Mus musculus with 12 samples.

Results

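Lipid-associated scar macrophage genes are a set of 8 genes, *Trem2*, *Tyrobp*, *Gpnmb*, *Cd63*, *Cd9*, *Spp1*, *Lpl* and *Lgals3*, out of 16971 genes listed for GFP(+) cells sorted from mouse liver. They were selected on gene name, with their 3 group means in view, so the levels and ratios given here describe the genes and carry no test. All 8 were listed, and all 8 passed the minimum of 10 normalized counts summed over the libraries that left 12889 genes. All groups carried the genotype Prom1CreERT2-nLacZ/+;Rosa26Lsl-GFP/+ on a strain labelled C57BL/6 (parent lines on C57BL/6N for *Prom1* and C57BL/6J for *Rosa26*) and received tamoxifen as adults 7 days before surgery, after which cells expressing *Prom1*, a marker of hepatic progenitor cells (HPCs), and their progeny carry GFP. The groups were day 0, which the labels call sham and the study describes as before surgery, and days 3 and 14 after ligation of the bile duct (BDL), an operation that stops the outflow of bile and leads to biliary fibrosis. The labels hold 3, 3 and 6 libraries, and the group means of the table were those of 3, 3 and 4 libraries. Both sexes were used in unequal shares, with more females at day 0 and more males after BDL, so sex and time after surgery cannot be told apart.

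In scarred liver, fat tissue and atherosclerotic plaque, macrophages that take up lipid and cell debris switch on a shared set of genes. TREM2 is a surface receptor for lipids, lipoproteins and dying cells that signals through the adaptor TYROBP (DAP12). GPNMB is a glycoprotein of lysosomes and the cell surface, CD63 and CD9 are tetraspanins of late endosomes and the plasma membrane, and LPL hydrolyses the triglycerides of lipoproteins. SPP1 (osteopontin) and LGALS3 (galectin-3) are secreted proteins linked to fibrosis. None of these genes is limited to lipid-laden macrophages: *Spp1* is also a gene of bile duct cells, and *Cd63*, *Cd9* and *Lgals3* are expressed widely.

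The sort was on GFP and nonparenchymal enrichment, with no gate on a macrophage protein stated. The 10 general macrophage genes were at or above 92.2 normalized counts in every group, and their summed means went from 6346 at day 0 through 11467 at BDL day 3 to 16748 at BDL day 14. *Lyz2*, lysozyme, gave the largest share of these sums (2280, 4560 and 11200), while the median of the 10 genes was 375.5, 466.5 and 298.5. At BDL day 14 against BDL day 3, 4 of the 10 were below 1/1.5, where 19.7% of all genes kept were. The 12 progenitor and cholangiocyte markers summed to 115, 53.8 and 70.0 in the same groups, with *Prom1* itself at 6.66, 0.956 and 1.76 and *Sctr* at the floor at BDL day 3. Fewer cells of a type and less RNA per cell cannot be told apart in bulk libraries, and neither can the cells in which each of the 8 genes was read.

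Sequence upstream of the start site is shown for *Trem2* and *Gpnmb*, which had the largest ratios of the 8 genes at both times after BDL, and for *Spp1*, the gene that was lower at BDL day 3. RefSeq promoters of GRCm38.p6 matched 6 of the 8 genes, and the 250 bases before the start were used. *Tyrobp* and *Lpl* had no entry. The *Trem2* window is chr17:48346151-48346400, that of *Gpnmb* chr6:49036268-49036517 and that of *Spp1* chr5:104434861-104435110, all on the + strand. Capitals mark matches to any of 5 motifs searched on both strands.
Trem2: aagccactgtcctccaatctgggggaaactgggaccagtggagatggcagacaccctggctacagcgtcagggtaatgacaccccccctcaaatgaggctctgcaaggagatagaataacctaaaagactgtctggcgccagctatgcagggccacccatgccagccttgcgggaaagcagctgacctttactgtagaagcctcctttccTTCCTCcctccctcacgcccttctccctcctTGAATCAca
Gpnmb: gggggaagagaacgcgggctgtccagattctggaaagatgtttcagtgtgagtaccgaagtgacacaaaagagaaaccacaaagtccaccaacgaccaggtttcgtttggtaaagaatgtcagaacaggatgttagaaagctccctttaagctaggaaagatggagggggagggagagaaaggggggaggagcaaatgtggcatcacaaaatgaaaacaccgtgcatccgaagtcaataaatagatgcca
Spp1: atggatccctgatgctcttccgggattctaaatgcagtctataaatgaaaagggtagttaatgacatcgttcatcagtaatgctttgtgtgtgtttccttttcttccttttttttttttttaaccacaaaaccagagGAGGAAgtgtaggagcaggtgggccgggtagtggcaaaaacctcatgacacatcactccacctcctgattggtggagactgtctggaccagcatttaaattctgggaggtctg
The PU.1 core GAGGAA, bound by a master regulator of macrophages, lay 40 to 35 bases before the start of *Trem2* on the - strand and 113 to 108 bases before that of *Spp1* on the + strand. With *Cd63*, which held it at 244 to 239 bases and again at 59 to 54 bases, 3 of 6 windows had this motif, against 23.3% of all 32851 promoter windows in the table. The AP-1 pattern searched (TGANTCA) allows any middle base, so it is looser than the binding site of FOS and JUN proteins. It was matched by TGAATCA 9 to 3 bases before the start of *Trem2* and in none of the other 5 windows (6.75% of all windows). Binding was not tested. The M-box TCATGTG (3.25% of all windows) and the CLEAR core TCACGTG (3.13%), letters bound by MITF and TFEB family factors, and the antioxidant response core TGACNNNGC (10.2%) were in none of the 6 windows. The starts used for *Cd63* and *Lgals3* lay 8356 and 6109 bases inside the edge of the annotated gene, so other starts of these genes were not searched. *Spp1* had 2 promoter entries, and only the window shown was searched.

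Across the 8 genes, 6 of 8 had a BDL day 3 mean more than 1.5 times that of day 0, where 19.2% of all genes kept did, and 1 (*Spp1*) was below 1/1.5 of it, where 29.2% did. With quantile normalization of the group means, *Cd63* and *Tyrobp* were no longer past the fold at BDL day 3 (4 of 8, against 26.7% of all genes). At BDL day 14, 6 of 8 were above 1.5 times day 0 (21.2% of all genes) and 0 were below (28.8%). The median of the 8 log2 ratios to day 0 was 1.01 for BDL day 3 and 1.77 for BDL day 14, beside -0.02 and -0.04 over all genes kept. Since both comparisons use the same day 0 libraries, they are not independent of each other. Summed over the 8 genes, the normalized counts went from 2496 at day 0 through 5305 at BDL day 3 to 6183 at BDL day 14, or 0.270%, 0.629% and 0.841% of the signal of all genes.

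**Figure D1:**
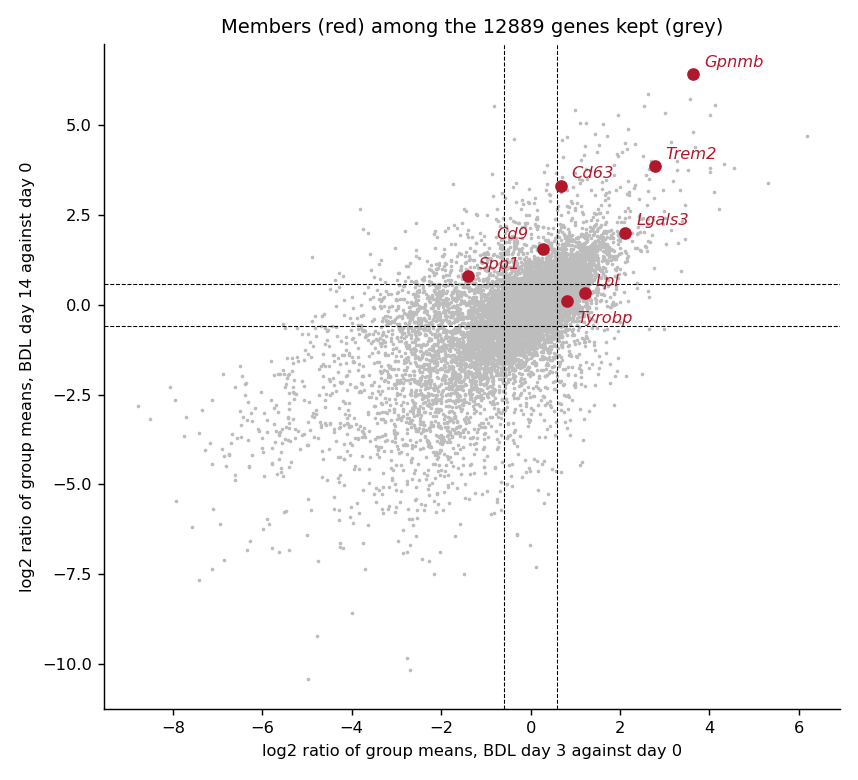
Log2 ratio of group means at BDL day 3 (x axis) and BDL day 14 (y axis), each against day 0, for the 12889 genes kept (grey) and the 8 genes (red), with dashed lines at 1.5-fold either way. *Gpnmb*, *Trem2* and *Lgals3* lie high on both axes, *Tyrobp* and *Lpl* are past the line at BDL day 3 only, *Cd9* is past it at BDL day 14 only, *Cd63* lies just past it at BDL day 3 and far past it at BDL day 14, and *Spp1* is below at BDL day 3 and above at BDL day 14.

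The table holds no value per library, so no replicate test could be made. For each gene it gives the mean of each group, and over all 10 libraries the mean, the geometric mean and the highest value. These set limits that a library of each group cannot pass, and give an approximate SD within groups on the log2 scale, if the spread is alike in the 3 groups. The study describes its BDL day 14 replicates as more variable than those of day 0, so this condition may not hold. Where the limits of a pair of groups did not meet, their libraries could not overlap. Where they met, overlap was not settled. By this measure the libraries of BDL day 3 lay above those of day 0 for 2 of the 8 genes (*Trem2* and *Lgals3*), where 1.94% of all genes kept did, and those of BDL day 14 lay above day 0 for 4 of 8 (*Trem2*, *Gpnmb*, *Cd63* and *Lgals3*), where 1.39% did. Between BDL day 3 and BDL day 14, 5 of 8 genes were above 1.5-fold (21.2% of all genes), 2 of 8 were below (19.7%), and *Cd63* and *Spp1* could not overlap, where 0.776% of all genes were higher at BDL day 14 in this way. The shares for libraries that could not overlap are over all genes kept, low means included, while all 8 genes have a mean of at least 10. The share among such genes alone was not computed.

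**Figure D2:**
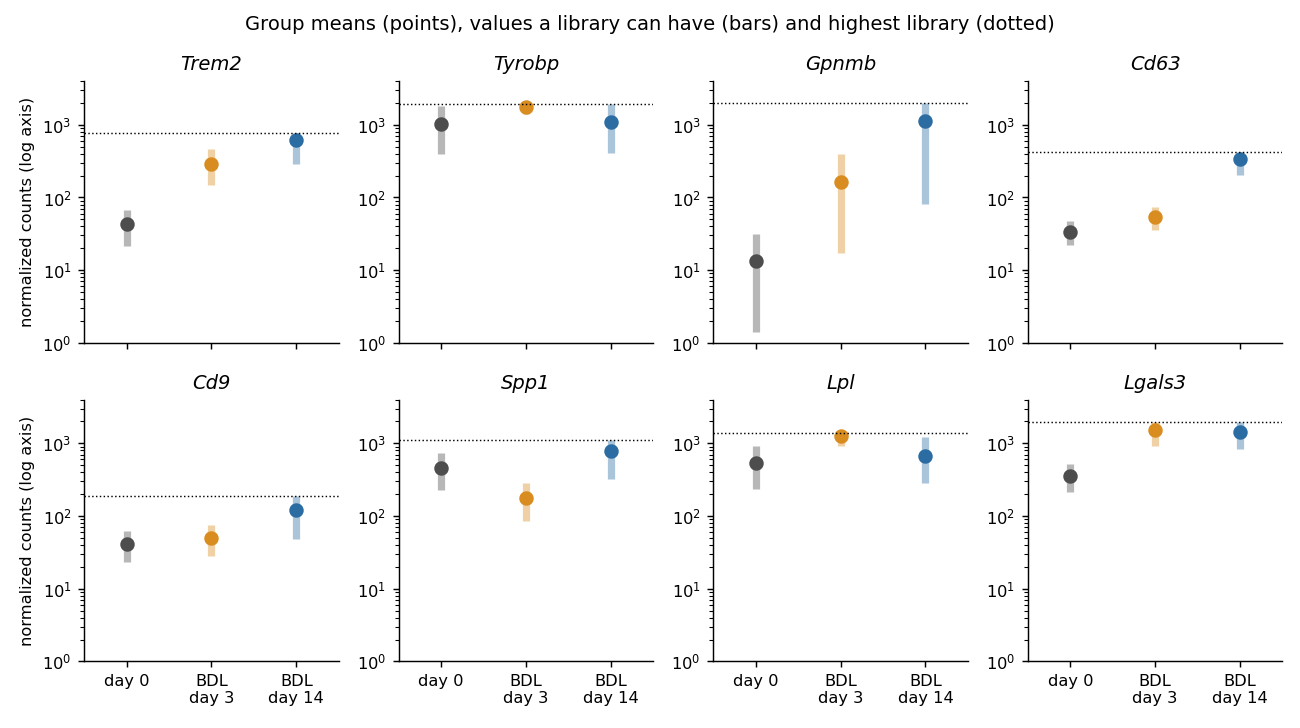
Normalized counts (log axis) of the 8 genes in each group. Points are group means of 3, 3 and 4 libraries, bars run from the lowest to the highest value that the table allows for a library of that group, and the dotted line is the highest library. The day 0 and BDL day 14 bars do not meet for *Trem2*, *Gpnmb*, *Cd63* and *Lgals3*, and the bars of *Gpnmb* are the longest.

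Among the receptor genes, *Trem2* (chr17:48346401-48354147 on mm10, + strand) had means of 42.5, 291 and 613 normalized counts in the groups day 0, BDL day 3 and BDL day 14, the order kept for all genes. Its libraries could lie between 21.7 and 67.6 at day 0, between 148 and 463 at BDL day 3, and between 286 and 766 at BDL day 14, where its highest library (765) was. Every library after BDL was thus above every day 0 library, while the BDL groups may overlap. The means were 6.85-fold (log2 ratio 2.78) and 14.4-fold (3.85) above day 0, against an approximate SD of 0.37 on the log2 scale.

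Its adaptor *Tyrobp* (chr7:30413760-30417585, + strand) had means of 1010, 1770 and 1080. A library could lie between 400 and 1790 at day 0, between 1405 and 1945 at BDL day 3, and between 414 and 1945 at BDL day 14. These ranges meet, so no order of the libraries is settled. Its log2 ratios to day 0 were 0.81 and 0.10, with an SD of 0.43. Per kilobase of exon, a scale on which levels of different genes can be set side by side, the mean of *Tyrobp* was 45.8 times that of *Trem2* at day 0, 11.7 times on BDL day 3 and 3.40 times on BDL day 14. The receptor and its adaptor thus did not keep a fixed proportion.

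Of the lysosomal and membrane genes, *Gpnmb* (chr6:49036546-49070929, + strand) had the widest change, with means of 13.2, 164 and 1130. Its libraries could lie between 1.39 and 31.7 at day 0, between 17.3 and 393 at BDL day 3, and between 81.4 and 2005 at BDL day 14, where its highest library was at 2000. All BDL day 14 libraries were above all day 0 libraries, and BDL day 3 was not settled against either. The ratios to day 0 were 12.4-fold (log2 ratio 3.64) and 85.6-fold (6.42), and BDL day 14 was 6.89-fold above BDL day 3. With 10 counts added to each mean, the log2 ratios to day 0 were 2.91 and 5.62. The spread of *Gpnmb* was also the widest of the 8, with an SD of 1.02 on the log2 scale (2.03-fold), where the other 7 lay between 0.26 and 0.44 and the middle of the 7291 genes with a mean of at least 10 was 0.44. Per kilobase, its mean was 0.0913, 0.166 and 0.542 times that of *Trem2*.

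*Cd63* (chr10:128900989-128912822, + strand), the tetraspanin of late endosomes, had means of 33.9, 54.3 and 338. Its libraries could lie between 22.4 and 46.9 at day 0, between 36.0 and 75 at BDL day 3, and between 201 and 425 at BDL day 14. All BDL day 14 libraries were above all others, while day 0 and BDL day 3 may overlap. Its log2 ratios to day 0 were 0.68 and 3.32 (9.97-fold at the later time), 2.55 and 12.4 times its SD of 0.27.

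*Cd9* (chr6:125460266-125494791, - strand), which marks the plasma membrane, had means of 41.3, 50.3 and 120. Ranges of 23.2 to 62.7, 28.2 to 76.3 and 48.9 to 189 were possible for its libraries in the same order. All 3 ranges meet. BDL day 14 was 2.91-fold above day 0 and 2.39-fold above BDL day 3, 3.51 and 2.86 times the SD of 0.44, while BDL day 3 was 1.22-fold above day 0. Per kilobase, *Cd63* was 0.909, 1.20 and 3.12 times *Cd9*.

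Of the secreted proteins, *Spp1* (chr5:104435118-104441050, + strand) was the gene with opposite directions. Its means were 459, 175 and 792. Libraries could lie between 227 and 740 at day 0, between 86.6 and 283 at BDL day 3, and between 327 and 1125 at BDL day 14. Every BDL day 14 library was above every BDL day 3 library, and day 0 was not settled against either. BDL day 3 was 2.62-fold below day 0 (log2 ratio -1.39), BDL day 14 was 1.73-fold above day 0 (0.79), and BDL day 14 was 4.53-fold above BDL day 3 (2.18). The difference of BDL day 14 from day 0 was 1.80 times the SD of 0.44, and without the highest library (1120, of BDL day 14) it was 0.57, under the 1.5-fold line. At BDL day 3, the progenitor and cholangiocyte markers (7 of 9 kept below 1/1.5 of day 0), the stellate cell and fibroblast markers (9 of 9) and the sinusoidal endothelial markers (7 of 8) were lower too. So were hepatocyte (10 of 13), T and NK cell (9 of 10), B cell (6 of 6) and dendritic cell markers (6 of 6), and 4 of 9 neutrophil markers. Over all genes kept, 29.2% were below. At BDL day 14, when *Spp1* was above day 0, 7 of 9 progenitor and cholangiocyte markers and 9 of 9 stellate cell and fibroblast markers were below 1/1.5 of it. Of the sinusoidal endothelial markers, 3 of 8 were below and 1 above, where 28.8% and 21.2% of all genes kept were. The part of these cell types in the level of *Spp1* was not tested.

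*Lgals3* (chr14:47367751-47386160, + strand) had means of 356, 1550 and 1430. Its libraries could lie between 211 and 524 at day 0, between 918 and 1945 at BDL day 3, and between 828 and 1945 at BDL day 14. All libraries after BDL were above all day 0 libraries. The means were 4.35-fold (log2 ratio 2.12) and 4.02-fold (2.01) above day 0, 8.02 and 7.58 times the SD of 0.26, and BDL day 14 was at -0.12 against BDL day 3 on the log2 scale, within the spread and with its sign turned by scaling (0.08 with equal summed signal and 0.24 with quantile normalization). Per kilobase, *Spp1* was 1.21, 0.106 and 0.522 times *Lgals3*.

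*Lpl* (chr8:68880491-68907448, + strand) had means of 540, 1250 and 680, a course close to that of *Tyrobp*. Libraries could lie between 236 and 919 at day 0, between 905 and 1415 at BDL day 3, and between 288 and 1215 at BDL day 14. The ranges of day 0 and BDL day 3 met over the span of 905 to 919, so their order was not settled. BDL day 3 was 2.31-fold above day 0 (log2 ratio 1.21) and BDL day 14 was 1.26-fold above it (0.33), with an SD of 0.43. BDL day 14 was 1.84-fold below BDL day 3, as *Tyrobp* was 1.64-fold below. The log2 ratios to day 0 of *Tyrobp* and *Lpl* were the closest of any pair of the 8 (distance 0.466), and those of *Gpnmb* and *Spp1* the farthest apart (7.55).

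Per kilobase of exon, the order of the 8 genes at day 0 was *Tyrobp* (1791 normalized counts per kilobase), *Spp1* (305), *Lgals3* (251), *Lpl* (131), *Trem2* (39.1), *Cd9* (33.6), *Cd63* (30.6) and *Gpnmb* (3.57). At BDL day 3 it was *Tyrobp* (3138), *Lgals3* (1092), *Lpl* (304), *Trem2* (267), *Spp1* (116), *Cd63* (49.0), *Gpnmb* (44.3) and *Cd9* (41.0). At BDL day 14, *Tyrobp* (1915) and *Lgals3* (1008) were followed by *Trem2* (563), *Spp1* (526), *Gpnmb* (305), *Cd63* (305), *Lpl* (165) and *Cd9* (97.7). *Tyrobp* led in all 3 groups, and the level of the top gene over that of the bottom gene shrank as *Gpnmb* left the last place. Neighbours such as *Trem2* and *Spp1* at BDL day 14 lay closer than the spread of either gene.

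The general macrophage genes moved too, with geometric means of 401, 606 and 508, log2 ratios of 0.60 and 0.34 to day 0. Divided by that mean, the log2 ratios at BDL day 14 against day 0 were 6.08 for *Gpnmb*, 3.51 for *Trem2*, 2.98 for *Cd63*, 1.67 for *Lgals3* and 1.20 for *Cd9*. The same ratio was 0.45 for *Spp1*, -0.01 for *Lpl* and -0.24 for *Tyrobp*. At BDL day 3 it was 3.04 for *Gpnmb*, 2.18 for *Trem2*, 1.53 for *Lgals3* and 0.62 for *Lpl*, with *Tyrobp* at 0.21, *Cd63* at 0.08, *Cd9* at -0.31 and *Spp1* at -1.99.

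**Figure D3:**
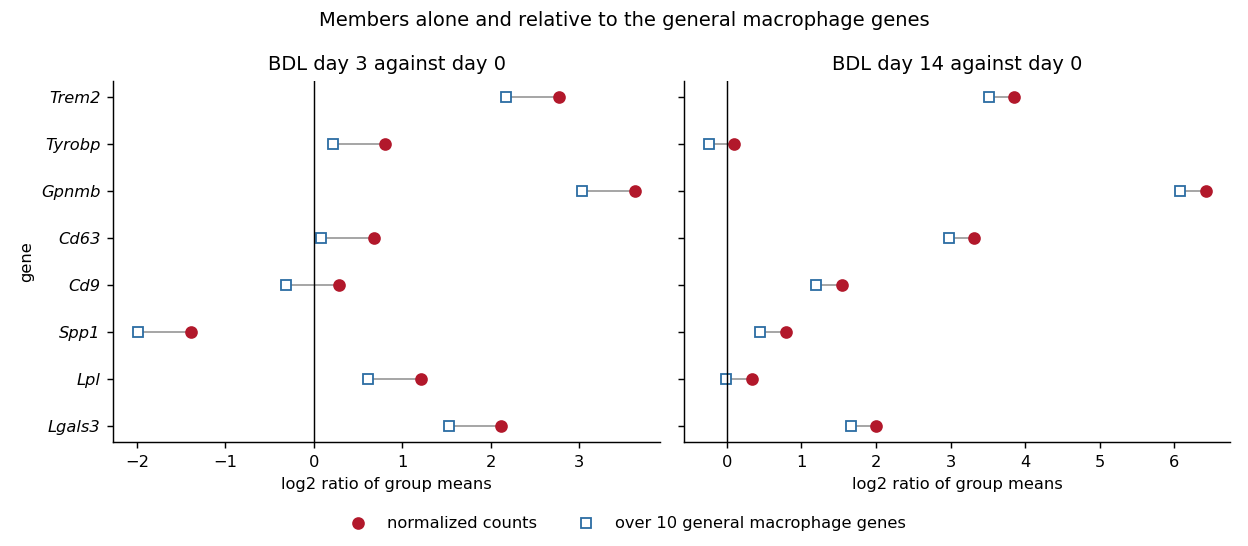
Log2 ratio of group means against day 0 for each of the 8 genes, from the normalized counts (filled circles) and after division by the geometric mean of 10 general macrophage genes (open squares), at BDL day 3 (left) and BDL day 14 (right). *Gpnmb* and *Trem2* stay far to the right of 0 on both scales, and *Tyrobp* and *Lpl* sit near 0 at BDL day 14.

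Markers of resident and recruited cells moved in opposite directions at the late time. All 11 Kupffer cell markers, the genes of the macrophages resident in the liver, were below 1/1.5 of day 0 at BDL day 14, and their summed means were 11466, 24762 and 2223. *Cd5l*, a secreted scavenger protein with the highest mean of the list at BDL day 3, had means of 2620, 7440 and 691, and *Clec4f*, a lectin with the highest at day 0, of 4610, 6890 and 185. Of 12 markers of recruited monocyte-derived cells, 9 were above 1.5-fold at BDL day 14 and 3 were below, and the sums were 521, 592 and 2511. Over all genes kept, 21.2% were above and 28.8% below at that time. *Chil3*, a lectin of recruited cells with the highest mean of that list at BDL day 14, had means of 14.7, 90.4 and 858, and *Plac8*, the highest in the other groups, of 228, 218 and 46.9. The means of *Trem2*, *Gpnmb*, *Cd63*, *Cd9* and *Spp1* were highest at BDL day 14, when the Kupffer list was lowest, and those of *Tyrobp* and *Lpl* at BDL day 3, when it was highest. *Lgals3* was also highest at BDL day 3 but stayed near that level at BDL day 14 (356, 1550 and 1430). *Tyrobp* (1010, 1770 and 1080) and *Lpl* (540, 1250 and 680) were not below day 0 at BDL day 14, unlike the Kupffer list. *Spp1* went from 459 to 175 at BDL day 3, when the recruited sum went from 521 to 592. The geometric mean of the general macrophage genes was highest at BDL day 3 too (401, 606 and 508). A shared highest group is thus not a shared course. The part of resident and recruited cells in the levels of the 8 genes was not tested.

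**Figure D4:**
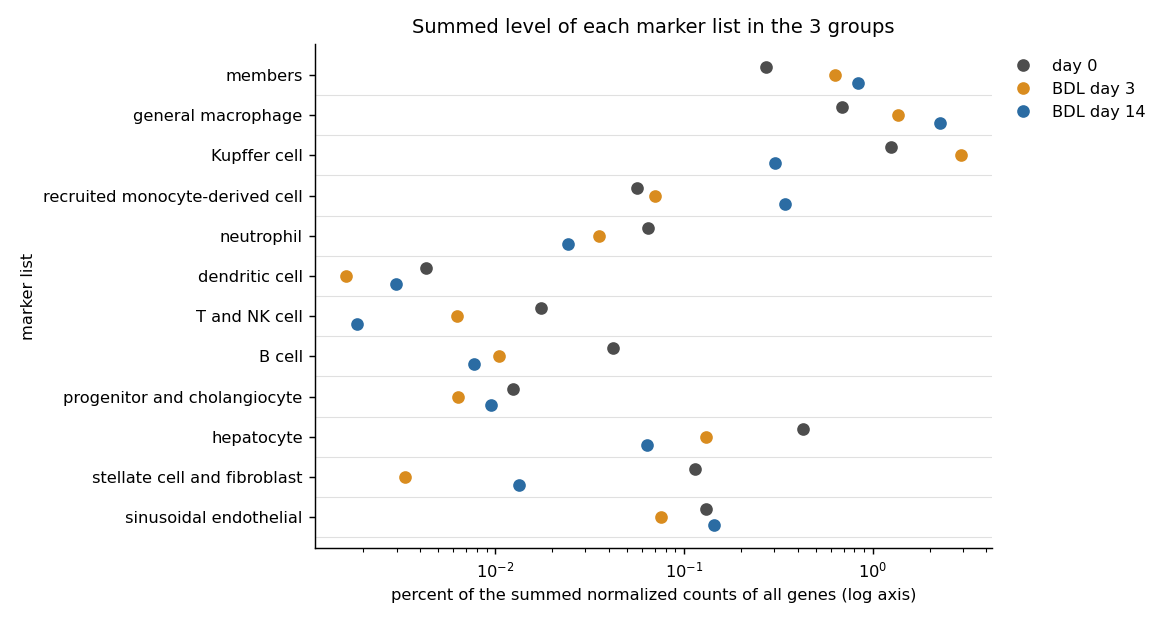
Summed means of the 8 genes and of each list of cell type markers, as a percent of the summed normalized counts of all genes (log axis), in the 3 groups. The Kupffer cell list is highest at BDL day 3 and lowest at BDL day 14, the recruited list is highest at BDL day 14, and the progenitor and cholangiocyte list is under the macrophage lists in every group.

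Among the other cell types, hepatocyte markers summed to 3941, 1107 and 471, led by *Alb* (2440, 642 and 271), with *Fabp1* at the floor at BDL day 14. The stellate cell and fibroblast list summed to 1060, 27.9 and 97.9, with *Lrat* at the floor at BDL day 14. The sinusoidal endothelial list summed to 1208, 640 and 1058. Neutrophil markers summed to 593, 299 and 180 with *Camp* and *Ly6g* at the floor at BDL day 14, B cell markers to 387, 88.8 and 56.9, T and NK cell markers to 161, 53.2 and 13.6 with *Ncr1* at the floor at BDL day 14, and dendritic cell markers to 39.8, 13.7 and 21.9 with *Cd209a* at the floor at BDL day 3. At day 0, *S100a9*, *Ighm*, *Gzma*, *Ccr7* and *Cdh1* had the highest means of the neutrophil, B cell, T and NK cell, dendritic cell and progenitor lists, *Col3a1* that of the stellate cell list and *Clec4g* that of the endothelial list. The 8 proliferation genes summed to 131, 130 and 153. The floor is up to 4 times the lowest mean of a group.

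The partners of TREM2 and TYROBP in the signalling cascade all had ratios to day 0 below those of *Trem2*. Of 21 such genes, 5 were above 1.5-fold and 1 below at BDL day 3, and 4 were above and 4 below at BDL day 14, with medians of 0.38 and -0.09 on the log2 scale. *Syk*, the kinase that TYROBP recruits, had means of 139, 174 and 118, and *Hcst* (DAP10), the second adaptor of TREM2, 11.3, 24.2 and 15.3. The sheddases that cut TREM2 from the surface differed, with *Adam10* at 70.3, 91.8 and 143 (log2 ratio 1.02 at BDL day 14) and *Adam17* at 66.3, 67.9 and 56.4. *Lat2* (13.3, 6.78 and 75.2), a membrane scaffold, *Vav3* (5.96, 7.19 and 21.9), a guanine nucleotide exchange factor, and *Adam10* had the highest ratios at BDL day 14. *Treml4* (174, 557 and 68.1), a relative of *Trem2* on Kupffer and other phagocytes, and *Src* (6.55, 7.41 and 3.05), a kinase, had the lowest.

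Further genes of lipid-laden macrophages were counted on a list that leaves out the 8. Of 30, 26 were above 1.5-fold and 1 below at BDL day 3, and 23 were above and 0 below at BDL day 14, with medians of 1.19 and 1.54. *Fabp4*, a carrier of fatty acids in macrophages and endothelial cells, was the gene below at BDL day 3 (80.7, 17.4 and 95.8), where *Spp1* was below too. The highest ratios at BDL day 14 were those of *Syngr1*, a vesicle protein (1.84, 3.98 and 61.0), *Atp6v0d2*, a subunit of the lysosomal proton pump (1.53, 8.78 and 26.8), and *Fabp5*, a fatty acid carrier (30.1, 65.8 and 494). The lowest were those of *Igf1* (252, 303 and 221), *Fabp4* and *Plin2*, a lipid droplet coat protein (174, 276 and 207), all within 1.5-fold. *Cd68* of this list is also 1 of the 10 general macrophage genes, and *Lgals1* is counted again among the other galectins below. The list was drawn up with results of these samples known, so its direction is no independent evidence.

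**Figure D5:**
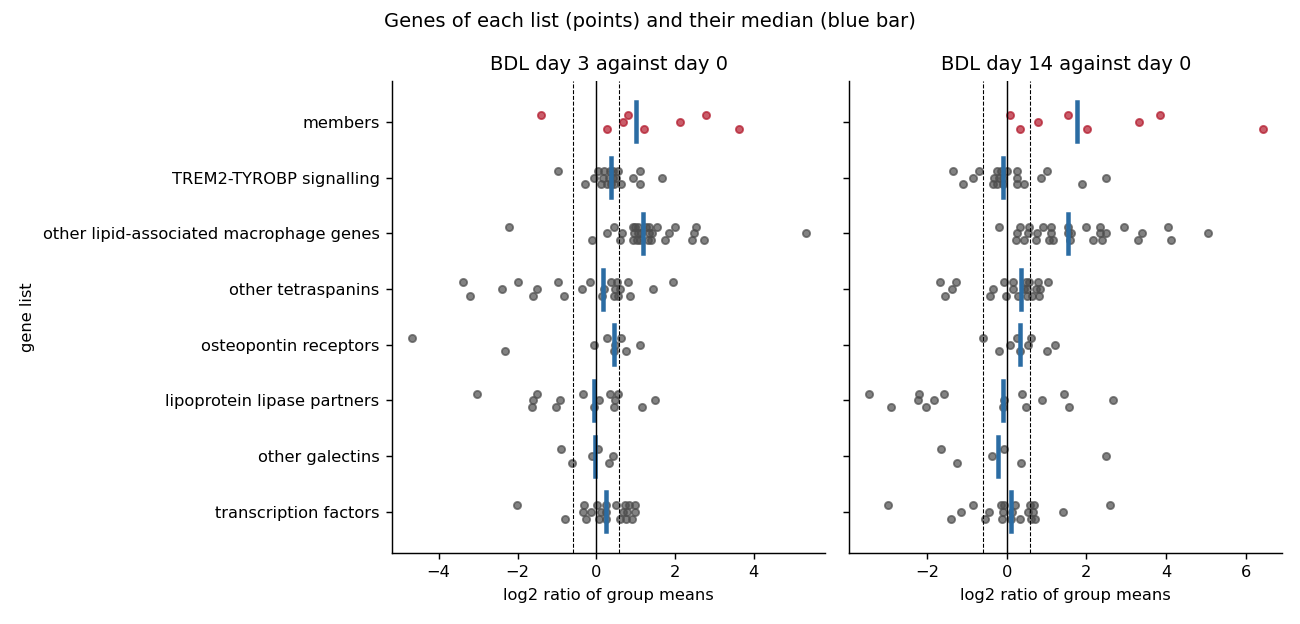
Log2 ratio of group means against day 0 for the 8 genes (red, labelled members) and for each gene kept of 7 related lists (grey), at BDL day 3 (left) and BDL day 14 (right), with the median of each list as a blue bar and dashed lines at 1.5-fold either way. The other lipid-associated macrophage genes have medians of 1.19 and 1.54, and the medians of the other 6 lists lie within 1.5-fold.

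Of 22 other tetraspanins kept, 5 were above and 8 below at BDL day 3 and 6 above and 4 below at BDL day 14, with medians of 0.16 and 0.36. *Tspan4*, a tetraspanin of migrating cells, had the highest ratio at BDL day 14 (41.5, 159 and 85.6; log2 ratio 1.04), followed by *Tspan17* (0.85) and *Tspan32* (0.80), all under that of *Cd9* (1.54). *Cd81* was at 415, 564 and 142, and with *Tspan2* (-1.68) and *Tspan33* (-1.36) had the lowest ratios. Among 6 other galectins kept, 1 was above and 2 below at BDL day 14, with a median of -0.22. *Lgals1*, the galectin above, was at 97.5, 90.8 and 550, so it was level at BDL day 3 where *Lgals3* was 4.35-fold up. *Lgals8* (0.35) and *Lgals9* (-0.08) followed it, and *Lgals2* (-1.63), *Lgals4* (-1.24) and *Lgals3bp* (-0.37) had the lowest ratios. At BDL day 3, 0 of the 6 were above and 2 below, with a median of -0.03.

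Of the receptors for osteopontin, 3 of 9 kept were above and 2 below at BDL day 3, and 3 above and 1 below at BDL day 14, with medians of 0.44 and 0.33. *Cd44* had means of 195, 327 and 207, and *Itgav*, the alpha-v integrin subunit, 30.5, 36.9 and 38.3. *Itgb3*, its beta-3 partner, ran in the direction of *Spp1* at both times, at 8.71, 1.74 and 20.1. *Itga4* (29.0, 27.9 and 58.5) and *Itga5* (20.8, 31.9 and 31.9) had the next highest ratios at BDL day 14, and *Itga8* (16.7, 0.650 and 11.1), *Itga9* (99, 214 and 86.5) and *Cd44* the lowest.

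The partners of lipoprotein lipase include genes of hepatocytes and endothelial cells. Of 15 kept, 2 were above and 6 below at BDL day 3, and 4 above and 7 below at BDL day 14, with medians of -0.05 and -0.10. *Gpihbp1*, the endothelial protein that holds LPL in the capillary, had means of 68.5, 36.2 and 204, the reverse of *Lpl* at BDL day 3. *Apoc2*, the activator of LPL, was at 13.1, 37.0 and 82.9, and *Sort1*, a sorting receptor, at 15.0, 4.93 and 40.7. *Apoc1* (1760, 2260 and 161), an inhibitor of lipoprotein uptake, *Angptl4* (18.9, 14.9 and 2.55), an inhibitor of LPL, and *Vldlr* (2.44, 0.301 and 0.528), a lipoprotein receptor, had the lowest ratios at BDL day 14.

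Of 22 transcription factors tied to this programme, 9 were above and 2 below at BDL day 3, and 6 above and 4 below at BDL day 14, with medians of 0.26 and 0.12. *Mitf*, which drives lysosomal genes with its relatives, had means of 10.3, 12.2 and 15.6 (log2 ratio 0.60 at BDL day 14), and *Tfec*, a relative in macrophages, 78.6, 62.1 and 35.7 (-1.14). *Pparg*, a lipid-sensing receptor, was at 6.90, 11.9 and 18.3 (1.41). *Nr1h3* (LXR-alpha), a sterol-sensing receptor also needed for Kupffer cell identity, was at 274, 457 and 34.9 (-2.97). *Bhlhe41* (0.630, 1.13 and 3.78) had the highest ratio of the list from very low means, *Irf8* (111, 209 and 182) ranked after *Pparg*, and *Cebpb* (115, 104 and 43.4) joined *Nr1h3* and *Tfec* at the low end.

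Genes with the most similar course were sought among 2572 genes whose highest group mean was at least 50, by the Euclidean distance between their pair of log2 ratios to day 0. With 3 group means per gene, closeness describes the means alone. Nearest to the median course of the 8 (1.01 and 1.77) were *Slc37a2*, *Gpr146*, *Mfsd1*, *Cd33*, *Galc*, *Tgfbr1*, *Tpd52*, *Apoe*, *Fxyd5* and *C3ar1*, at distances from 0.0752 to 0.192. *Apoe*, the lipoprotein component made by macrophages and hepatocytes, had means of 7330, 15300 and 22500, and *C3ar1*, the receptor for complement C3a, of 68.3, 125 and 256. *Galc*, a lysosomal galactosylceramidase, was at 19.6, 36.6 and 66.8.

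By gene, the pair of genes nearest to *Trem2* were *Arl11* and *Ccl9*, both 0.758 or more away, and those nearest to *Gpnmb* were *Chil3* and *Dpep2*, 1.16 or more away, both farther than the nearest gene of any other of the 8. *Cd63* lay nearest to *S100a4* (distance 0.230), a calcium-binding protein of recruited macrophages, and *Sirpb1c* (0.349). *Cd9* was close to *Mmp14* (0.114), a membrane metalloproteinase, and *Tifa* (0.154). *Lgals3* was close to *Scd2* (0.114), a fatty acid desaturase, and *Parvg* (0.164). *Spp1* was nearest to *Il6st* (0.0855), the shared receptor subunit of the interleukin-6 family, and *Elk3* (0.160), *Tyrobp* to *Neu1* (0.0313), a lysosomal sialidase, and *Pepd* (0.0338), and *Lpl* to *B4galt6* (0.0329) and *Pald1* (0.0379).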

How the data were processed

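mRNA of sorted GFP(+) cells was sequenced. In Partek Flow, the authors trimmed and aligned reads (mm10, STAR, version 2.6.1d in the submitters' processing notes and another in the methods), counted GENCODE genes and scaled each library by its upper quartile. The strand setting of the counting is not given in the sources used here. The deposited signal values are 1 least squares mean of normalized counts per group, with mean, geometric mean, highest library and sum over 10 libraries. Depth per library is unknown. The table also holds the authors' p-values, FDR, ratios and fold changes with limits, which were not used.

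Group sizes were those whose weighted means gave back the deposited mean (99th percentile of the deviation 0.469%, next split 19.9%). The study dropped 2 BDL day 14 samples because too few reads remained after trimming and alignment. Samples of day 0 and BDL day 3 were also dropped, for poor RNA quality. It is not stated which 2 BDL day 14 libraries were left out. Genes summing to at least 10 normalized counts were kept, and the first of a repeated symbol was used. With 1 mean per group there are no p-values, and past the fold means a ratio above 1.5 or below 1/1.5, the fold of the study. Limits on libraries allow for rounding to 3 digits and rest on the sum of logarithms within groups never passing that of the group mean. The approximate SD has 7 degrees of freedom. The steps were tested on simulated data. Gene ends and exon lengths are those of GENCODE M21 (principal transcript), whose coordinates matched 99.9% of symbols. The genes named beside the 8 are the nearest in course, the 3 highest and 3 lowest at BDL day 14 of each pathway list, direct partners, and the highest and floor markers of each cell type list. Of these, 1 gene of a pathway list is not reported here. *Fabp4* at BDL day 3 was named after its value was seen. The 8 genes and all lists were chosen with earlier results of these data known. Python 3.11.15, pandas 2.3.3, numpy 2.4.6 and matplotlib 3.10.9 were used.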

Additional observations from a re-analysis of the deposited data

How the results depend on the processing

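The alternatives were median-ratio scaling, quantile normalization and equal summed signal of the group means, pseudocounts of 1 and 10, a fold of 2, other filters on low values and the group means without the highest library of a gene where its group could be placed. Over the alternatives run, the count of the 8 genes above 1.5-fold lay between 4 and 6 for BDL day 3 against day 0, between 5 and 7 for BDL day 14 against day 0 and at 5 for BDL day 14 against BDL day 3. The medians stayed between 0.67 and 1.14, 1.62 and 2.10, and 0.95 and 1.36, and no called ratio changed sign. Of 144 values for single genes, 136 stayed on their side of 1.5-fold (0.58 on the log2 scale). The exceptions were *Cd63* at BDL day 3 against day 0 (0.55 with a pseudocount of 10 and 0.54 with quantile normalization), *Tyrobp* at BDL day 3 against day 0 (0.32 with quantile normalization) and at BDL day 14 against BDL day 3 (-0.51 with either quantile normalization or equal summed signal), *Spp1* at BDL day 14 against day 0 (0.49 with quantile normalization and 0.57 without the highest library), and *Lpl* at BDL day 14 against day 0 (0.66 with equal summed signal). Equal summed signal moved the median log2 ratio to day 0 of all genes to 0.11 (BDL day 3) and 0.29 (BDL day 14), and quantile normalization to 0.12 and 0.10. The share of all genes above and below 1.5-fold at BDL day 14 against day 0 was 21.2% and 28.8%, became 35.5% and 21.1% with equal summed signal and 28.0% and 23.2% with quantile normalization. At BDL day 3 against day 0 it was 19.2% and 29.2%, and 26.7% and 21.0% with quantile normalization. Between BDL day 14 and BDL day 3, 21.2% and 19.7% became 28.3% and 14.0% with equal summed signal. Among genes with a mean of at least 10, which all 8 have, the share above 1.5 against day 0 was 22.9% (BDL day 3) and 23.4% (BDL day 14). In the same genes, the share below 1/1.5 was 15.0% (BDL day 3) and 17.4% (BDL day 14) against day 0, and the share above 1.5 for BDL day 14 against BDL day 3 was 14.1%. Leaving out each replicate in turn could not be run on group means. No paired analysis was possible because the table holds no value per library.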
